A study of Mus musculus with 2 samples.

Results

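The proteasome genes of mouse teratomas are described here in 1 teratoma library grown from E14 cells and 1 grown from E14-Sox2TA/WT cells. They were chosen by name, as the protein-coding genes whose symbols run from the Psma to the Psmg series followed by a number, and 48 of the 45777 genes in the deposited table met this rule. The set holds 7 alpha and 7 constitutive beta subunits of the core particle, 3 immunoproteasome subunits, 2 tissue-specific subunits, 6 ATPases and 11 other subunits of the regulatory particle, 4 activators, 1 inhibitor and 7 assembly chaperones. The study asked how O-GlcNAcylation of the transcription factor Sox2, at the threonine that the T258A change removes, bears on cell fate, and the teratomas served to follow differentiation in the animal.

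The E14 group is wild type for Sox2 and comes from E14, an established mouse embryonic stem cell line. The E14-Sox2TA/WT group comes from the same line after CRISPR/Cas9 editing and carries the T258A change, alanine in place of threonine, on 1 allele of Sox2. Edited cells were grown up from single cells before the mutated ones were picked, and how many clones stand behind the library is not given in the sources used here. Cells of both groups were placed under the skin of BALB/c-nu mice, 3 mice per group, and the tumours were harvested at day 14. Nude mice lack a normal thymus and most T cells but keep macrophages, neutrophils and B cells, so host RNA can be part of both libraries. Whether a library holds 1 tumour or several pooled tumours is not given in the sources used here. The extraction protocol in the labels speaks of a stem cell line, whereas their tissue entry says teratoma. In the libraries, 4 ectoderm markers summed to a TPM of 1864 in the E14 teratoma and 234 in the E14-Sox2TA/WT teratoma, 4 mesoderm markers to 161 and 156, and 4 endoderm markers to 156 and 643.

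The proteasome is the protease complex that degrades proteins marked with ubiquitin. Its barrel-shaped core particle is made of outer alpha rings, which gate the entrance, and inner beta rings, which hold the active sites, and a regulatory particle of ATPases and lid subunits binds, unfolds and feeds in the substrate. In immune cells and in cells exposed to interferon gamma the catalytic beta subunits are exchanged for inducible ones, which favours peptides for antigen presentation, and spermatocytes and cortical thymic epithelium build further variants.

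Levels are given as TPM, the share of a transcript among all transcripts of a library, a read count scaled by transcript length so that every library sums to the same total, and levels of different genes are compared on this scale only. In total, 50529171 reads fell on genes in the E14 teratoma and 49030281 in the E14-Sox2TA/WT teratoma. Each fold is the ratio of TPM between the libraries, followed by the 95% Clopper-Pearson interval of the read counts, which covers counting error only. With 1 library per group no difference has a replicate check and no p-value is given. The libraries differed in ways that touch every gene. Mitochondrial genes took 5.17% of the TPM in the E14 teratoma and 9.70% in the E14-Sox2TA/WT teratoma. TPM folds were 0.871 times the folds of FPKM, the unit in which the total is not fixed, and the median log2 ratio of all 18558 genes that reached a TPM of 1, with 1 added to each TPM, was -0.06 with TPM and 0.11 with FPKM or with reads scaled by library total. Genes of chromosome 8 had a median of -0.48 and those of chromosome 15 a median of 0.35, and of these 2 chromosomes only chromosome 8 carries proteasome genes, Psmd7 and Psmb10. A point mutation leaves no trace in counts by gene, so the Sox2 allele could not be checked in these values.

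As a set, the proteasome genes stood at nearly the same level in both teratoma libraries. Together they held 0.874% of the TPM in the E14 teratoma and 0.908% in the E14-Sox2TA/WT teratoma, sums of 8742 and 9083. This ratio of 1.04 became 1.17 with reads scaled by library total and 1.19 with FPKM. Of the 48 genes, 47 reached a TPM of 1 in either library, all but Psmb11, and 46 reached a TPM of 10, all but Psmb11 and Psma8. Over the 47 genes the median log2 ratio was 0.01 (order-statistic 95% interval -0.04 to 0.16), with 26 higher and 21 lower in the E14-Sox2TA/WT teratoma. Among all genes that reached a TPM of 1, 8819 of 18558 were higher. Psma8 reached the minimum through the E14-Sox2TA/WT teratoma alone, and over all 48 genes, with no filter, the median was again 0.01. The middle part of the set, from the lower to the upper quartile, ran from -0.11 to 0.22, against -0.65 to 0.57 for all genes. Measured against the all-gene median, the set was higher by 0.07 with TPM and by 0.10 with FPKM, but after correction for transcript length its median was -0.13.

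Few of the genes passed the rule that the study's methods set for differential expression, a fold above 2 for genes that reach a TPM of 10 in either library. Psma2 was the 1 gene of 46 more than 2-fold higher in the E14-Sox2TA/WT teratoma, 2.17% of the members tested, against 10.8% of all genes that reached the TPM minimum. Psmd7 was the 1 gene more than 2-fold lower, again 2.17%, against 18.7% of all genes. Over all genes the rule called 1253 higher and 2167 lower in these values, more in each direction than the paper counts for the teratomas. A fold above 1.5 in either direction was found for 9 of the 46 members, 19.6%, against 50.5% of all genes. These were Psma2, Psma3, Psmb8, Psmb9, Psmc5, Psme4 and Psmg1 on the higher side and Psmd7 and Psmf1 on the lower side. In all, 25 of the 46, or 54.3%, were higher to any degree, against 41% of all genes. Most proteasome genes are abundant, so the same counts were taken again for genes that reached a TPM of 100. At that level 1 of 32 members was more than 2-fold higher against 7.89% of genes, 1 of 32 was more than 2-fold lower against 15.3%, 4 of 32 differed by more than 1.5-fold against 43.4%, and 18 of 32 were higher against 47.6%. Folds from 0.8 to 1.25 were measured for 31 of the 48 proteasome genes, and for 29.7% of all genes that reached a TPM of 10.

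**Figure D1:**
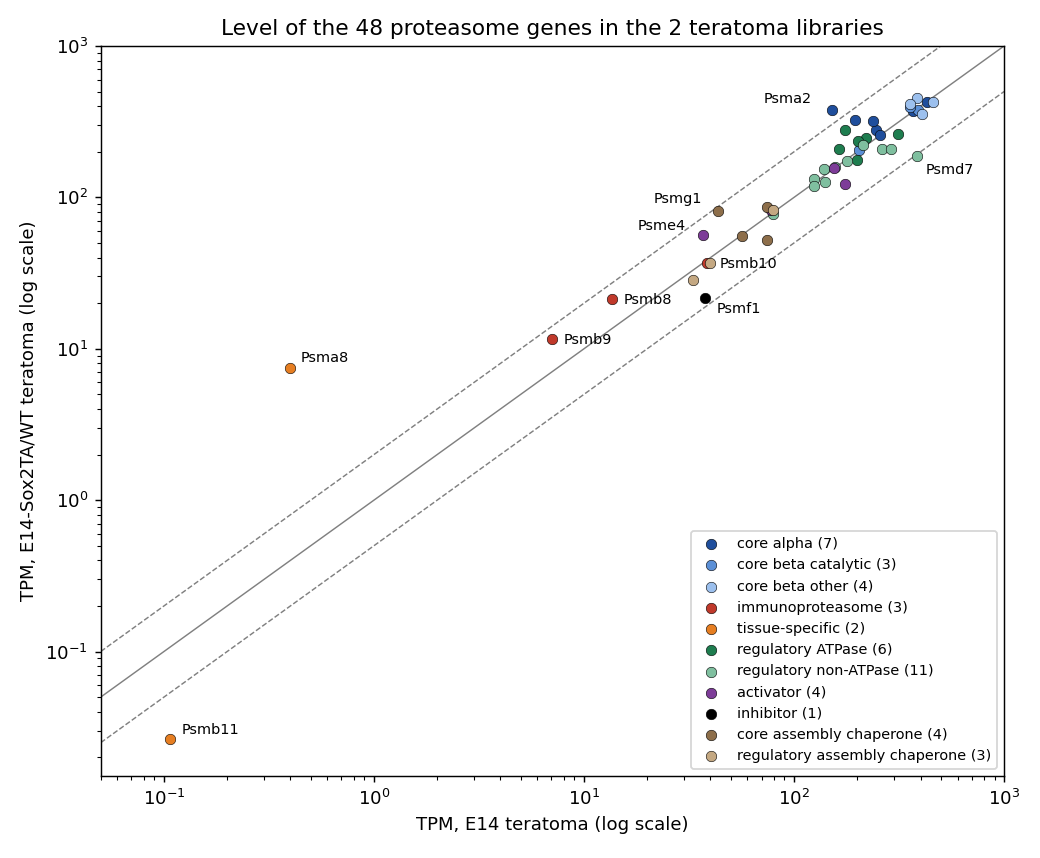
Level of each of the 48 proteasome genes as TPM in the E14 teratoma (horizontal, log scale) and in the E14-Sox2TA/WT teratoma (vertical, log scale), coloured by class, with the number of genes of each class in parentheses. The solid line marks equal levels and the dashed lines a 2-fold difference, and outside the dashed lines lie Psma2 and Psma8 above and Psmd7 and Psmb11 below.

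The 14 constitutive core subunits are needed in equal numbers in each particle, and their TPM ran from 151 to 457 in the E14 teratoma and from 204 to 455 in the E14-Sox2TA/WT teratoma. The highest exceeded the lowest 3.02-fold in the E14 teratoma and 2.23-fold in the E14-Sox2TA/WT teratoma. Of the 14, 9 were higher and 5 lower in the E14-Sox2TA/WT teratoma, against 8819 higher of the 18558 genes that reached a TPM of 1. The median log2 ratio of the 14 was 0.09 (-0.04 to 0.43). It stayed above 0 under each scaling tried and was -0.14 after the correction for transcript length. Folds from 0.8 to 1.25 covered 11 of the 14 genes, and the exceptions were alpha subunits, Psma2, Psma3 and Psma6. The 7 alpha subunits together had a TPM of 1882 and 2349, a ratio of 1.25, and the 7 beta subunits a TPM of 2555 and 2624, a ratio of 1.03.

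Psma2, an alpha ring subunit, lies on chromosome 13 of GRCm38 (chr13:14613242-14625673). It had a TPM of 151 in the E14 teratoma and 377 in the E14-Sox2TA/WT teratoma, from 3444 and 9580 reads, and was 2.49-fold higher (2.40 to 2.59). In the E14 teratoma Psma2 was the lowest of the core subunits, and in the E14-Sox2TA/WT teratoma it stood among the others. Over 5 other scalings or corrections its fold ran from 2.12 to 2.87. Set against Psma6 in the same library, the ratio of Psma2 was 0.639 in the E14 teratoma and 1.18 in the E14-Sox2TA/WT teratoma. Of the stretches of 50 nt in its transcripts, 2.95% were found in transcripts of other genes. The 39 genes within 5 Mb on either side that had a TPM of at least 1 centred on a log2 ratio of 0.64 (median, 0.39 to 0.96). Psma2 itself stood at 1.31 on the same scale, and 6 of these neighbours were higher. Chromosome 13 as a whole had a median of 0.20 over 758 genes.

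Psma3, another alpha subunit, had a TPM of 195 and 323, from 7253 and 11549 reads, and was 1.66-fold higher (1.61 to 1.71). The transcript length that its FPKM and reads imply was shorter in the E14-Sox2TA/WT teratoma by 0.22 on the log2 scale, and 22.0% of its 50-nt stretches also occur in Gm13835, so its level is less certain. Psma6 went from 237 to 320, a fold of 1.35 (1.31 to 1.40). The remaining alpha subunits were close to equal in both libraries. Psma1 had a TPM of 246 and 277, Psma4 of 369 and 372, Psma5 of 257 and 256, and Psma7 of 427 and 423. Stretches of 50 nt found in other genes made up 55.4% of those of Psma5 and 23.7% of those of Psma4.

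Among the beta subunits without an active site, Psmb1 had the highest TPM of all members in the E14 teratoma, 457, and 423 in the E14-Sox2TA/WT teratoma. Psmb3 had the highest in the E14-Sox2TA/WT teratoma, 455, after 384 in the E14 teratoma. Psmb2 was the lowest of the core subunits by fold, at 408 and 354 or 0.868-fold (0.841 to 0.895), a direction that turned with reads scaled by library total, at 1.04-fold. Psmb4 was measured at 358 and 414.

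**Figure D2:**
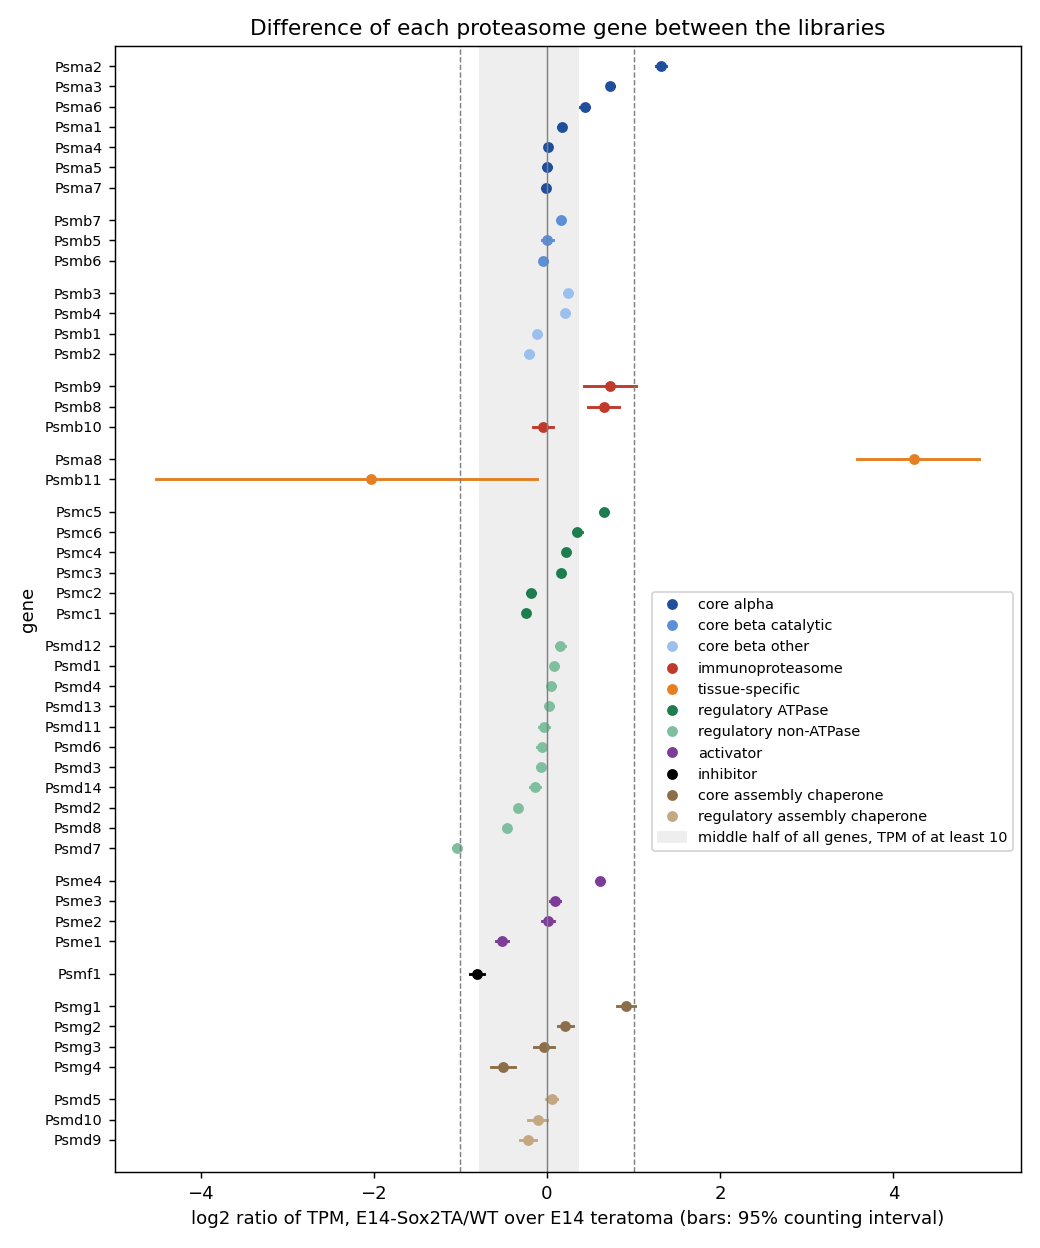
Log2 ratio of TPM, E14-Sox2TA/WT over E14 teratoma, for each proteasome gene by class (horizontal axis), with bars for the 95% counting interval and dashed lines at a 2-fold difference. The grey band runs from the lower to the upper quartile of the same ratio over all genes that reached a TPM of 10, from -0.78 to 0.36, and most core and regulatory particle genes lie close to 0, while Psma8 and Psmb11, with few reads, have wide bars.

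The constitutive catalytic subunits were nearly level, whereas of their inducible counterparts Psmb8 and Psmb9 were at a higher level in the E14-Sox2TA/WT teratoma and Psmb10 was not. Psmb5, which carries the chymotrypsin-like activity, had a TPM of 203 and 204. Psmb6, which carries the caspase-like activity, had a TPM of 389 and 377. Psmb7, which carries the trypsin-like activity, had a TPM of 355 and 397, a fold of 1.12 (1.08 to 1.15). Of the 50-nt stretches of Psmb5, 54.1% occur in other genes, chiefly the Gm3375 gene, and 28.1% of those of Psmb7 occur in Nek6 on the opposite strand, and the sources used here do not say if strand was used in counting.

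Psmb8, which takes the place of Psmb5 in the immunoproteasome, had 402 reads and a TPM of 13.6 in the E14 teratoma and 705 reads and a TPM of 21.5 in the E14-Sox2TA/WT teratoma, 1.57-fold higher (1.39 to 1.78). Psmb9, the counterpart of Psmb6, had 143 reads and a TPM of 7.07 in the E14 teratoma and 270 reads and a TPM of 11.7 in the E14-Sox2TA/WT teratoma, 1.65-fold higher (1.34 to 2.04). Over the 5 other scalings and corrections the fold of Psmb8 ran from 1.52 to 1.81 and that of Psmb9 from 1.41 to 1.95. Psmb10, the counterpart of Psmb7, had 1175 and 1267 reads and a TPM of 38.4 and 37.1, a fold of 0.966 (0.891 to 1.05) whose direction turned under 4 of the 5 alternatives.

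A ratio taken within each library does not depend on how the libraries are scaled. Psmb9 stood at 1.82% of Psmb6 in the E14 teratoma and 3.09% in the E14-Sox2TA/WT teratoma, a change of 1.70-fold (95% counting interval 1.39 to 2.09). Psmb8 stood at 6.70% and 10.5% of Psmb5, a change of 1.57-fold (1.38 to 1.78). Psmb10 stood at 10.8% and 9.36% of Psmb7, a change of 0.865-fold (0.795 to 0.942). It became 0.992-fold after the correction for transcript length with bins over genes that reached a TPM of 1. With bins over genes that reached a TPM of 10, the corrected folds were 0.933 for Psmb10 and 1.07 for Psmb7, so the corrected change depended on the bins. The inducible subunits were a small part of the catalytic transcripts in both tumours, 5.87% of the TPM of all 6 catalytic genes in the E14 teratoma and 6.70% in the E14-Sox2TA/WT teratoma. Psmb9 stood at 51.8% and 54.4% of Psmb8, a change of 1.05-fold (0.828 to 1.33).

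The 3 inducible genes and the activators Psme1 and Psme2 are the members best known to respond to interferon gamma, and the sequences upstream of their starts are shown for that reason. They are RefSeq sequences on GRCm38.p6, the build of the mm10 table, read 5′ to 3′ on the strand of the gene and ending at the base before its start. Capitals mark matches, on either strand, to a gamma-activated site (TTCNNNGAA), an interferon-stimulated response element (GAAA, any 2 bases, GAAA), the antioxidant response core (TGACNNNGC or TGAGNNNGC) or a CCAAT box. The stretch before Psmb9 is the whole of the 225 bases that part its RefSeq start from that of Tap1, the peptide transporter gene on the other strand, although GENCODE also lists transcripts of both genes that overlap.
Psmb9, chr17:34187331-34187555, minus strand: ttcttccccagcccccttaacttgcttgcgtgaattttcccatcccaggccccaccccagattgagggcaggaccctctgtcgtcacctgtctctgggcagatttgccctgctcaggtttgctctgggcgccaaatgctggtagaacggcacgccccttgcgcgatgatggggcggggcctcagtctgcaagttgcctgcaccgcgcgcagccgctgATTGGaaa
Psmb8, chr17:34197945-34198194, plus strand: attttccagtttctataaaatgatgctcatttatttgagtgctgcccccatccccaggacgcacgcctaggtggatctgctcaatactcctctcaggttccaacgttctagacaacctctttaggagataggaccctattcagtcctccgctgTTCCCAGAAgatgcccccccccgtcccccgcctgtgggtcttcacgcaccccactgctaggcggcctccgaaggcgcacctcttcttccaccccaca
Psmb10, chr8:105938393-105938642, minus strand: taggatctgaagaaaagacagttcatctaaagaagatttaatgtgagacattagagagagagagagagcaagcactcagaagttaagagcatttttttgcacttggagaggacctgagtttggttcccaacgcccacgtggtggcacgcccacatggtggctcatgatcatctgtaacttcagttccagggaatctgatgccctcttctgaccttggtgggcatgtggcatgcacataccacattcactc
Psme1, chr14:55578244-55578493, plus strand: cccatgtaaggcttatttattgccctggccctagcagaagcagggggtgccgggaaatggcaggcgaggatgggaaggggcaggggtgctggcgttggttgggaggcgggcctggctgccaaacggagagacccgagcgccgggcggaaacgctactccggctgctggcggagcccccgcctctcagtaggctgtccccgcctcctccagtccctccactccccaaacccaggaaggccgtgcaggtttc
Psme2, chr14:55591102-55591351, minus strand: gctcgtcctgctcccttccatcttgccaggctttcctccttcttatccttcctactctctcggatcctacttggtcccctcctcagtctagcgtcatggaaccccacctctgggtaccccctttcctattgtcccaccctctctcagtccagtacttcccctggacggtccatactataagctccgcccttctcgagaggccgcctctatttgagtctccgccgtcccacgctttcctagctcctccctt

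The sequence of Psmb8 held 1 gamma-activated site match, TTCCCAGAA, whose first base lies 97 bases before the start, and that of Psmb9 held 1 CCAAT match, ATTGG on this strand, 8 bases before the start. The upstream sequences of Psmb10, Psme1 and Psme2 held no match to these letters. Windows of 300 bases, 250 before and 50 after the start, were on hand for 40 of the 48 genes and for 27025 genes in all. An antioxidant response core was found in 11 of 25 core and regulatory particle windows, 44%, in 15 of the 40 windows of members, 37.5%, and in 0 of the 3 of the inducible genes, against 27.7% of all windows. An interferon-stimulated response element was found in 5 of 40 windows of members, 12.5%, against 3.49%, Psmb3 among them and Psme1, whose match does not lie wholly before the start, and a gamma-activated site in 3 of 40, 7.5%, against 8.47%. A CCAAT box was found in 14 of 40, 35%, against 37.9%. Matches to different motifs were counted separately, also where they could overlap.

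**Figure D3:**
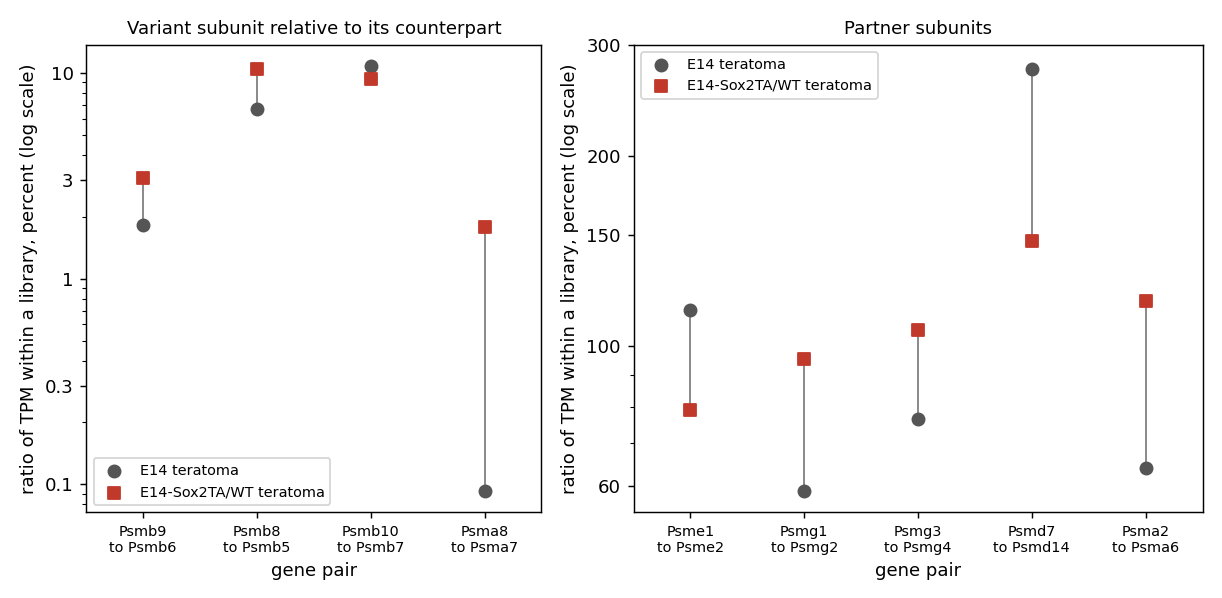
Ratio of TPM within a library, in percent on a log scale, for variant subunits relative to their constitutive counterparts (left) and for partner subunits (right), with grey circles for the E14 teratoma and red squares for the E14-Sox2TA/WT teratoma. Psmb9 and Psmb8 are higher relative to Psmb6 and Psmb5 in the E14-Sox2TA/WT teratoma, Psmb10 is not relative to Psmb7, and Psma8 stays under 2% of Psma7 in both libraries.

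Genes of antigen presentation did not all differ alike. Of 13 listed genes, taken with no filter, 10 stood higher in the E14-Sox2TA/WT teratoma and 2 lower, and 1 had no reads, with a median log2 ratio of 0.21 (0 to 0.88). This list was chosen after seeing the data, and 8819 of the 18558 genes that reached a TPM of 1 were higher. B2m, the light chain of class I molecules, had a TPM of 312 and 477, and the class I heavy chain H2-K1 had 86.5 and 160. H2-D1, another heavy chain, had 121 and 153. Irf1, a transcription factor induced by interferon, had 13.9 and 35.5, a fold of 2.55 (2.34 to 2.78). Cxcl10, an interferon-induced chemokine, had 0.929 and 3.83, and Ifng itself had 0 reads in both libraries. Tap1, which lies back to back with Psmb9, had 702 and 763 reads and a TPM of 9.88 and 9.64. The ratio of Psmb9 to Tap1 was therefore 0.715 in the E14 teratoma and 1.21 in the E14-Sox2TA/WT teratoma, a change of 1.69-fold (1.35 to 2.12). In the overlapping transcripts noted above, 9.71% of the 50-nt stretches of Psmb9 are found in Tap1, and 5.51% of those of Psmb8 are found in the antisense gene Gm20496.

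Macrophages and neutrophils express the immunoproteasome. Their listed markers differed in the same direction as Psmb8 and Psmb9, but not all inducible subunits did. Psmb10 had a TPM fold of 0.966 (0.891 to 1.05). All 10 listed markers of these cells were at a higher level in the E14-Sox2TA/WT teratoma, in a list chosen after seeing the data. Of the 18558 genes that reached a TPM of 1, 8819 were higher. The 10 markers had a median log2 ratio of 0.59 (0.32 to 1.07), a summed TPM of 974 and 1655, and none at 0. Lyz2, the lysozyme of these cells, had a TPM of 457 and 943, and the complement genes C1qa and C1qc had 150.2 and 215, and 164 and 212. S100a8, a calcium-binding protein of neutrophils, had 21 and 92 reads, and its partner S100a9 had 86 and 218. A further list, also chosen after seeing the data, held 10 leukocyte markers. Of these, taken with no filter, 5 stood higher, 3 lower and 2 had no reads, against the same 8819 of 18558 genes. Their summed TPM was 38.6 and 37.2. Most of that sum was Coro1a, with a TPM of 35.0 in the E14 teratoma and 28.4 in the E14-Sox2TA/WT teratoma. Ptprc encodes the common leukocyte antigen, so this list does not set other leukocytes apart from macrophages and neutrophils. Coro1a had 1403 and 1275 reads, Ptprc had 268 and 694, and Cd4 had 93 and 92. Cd3g and Klrb1c had 0 reads in both libraries, and Cd3e, Cd8a and Nkg7 had 0 in the E14 teratoma and 40, 17 and 19 reads in the E14-Sox2TA/WT teratoma. In bulk tumour RNA, a larger number of cells of a type and more RNA per cell cannot be told apart. The part of host macrophages in the levels of Psmb8, Psmb9 and Psmb10 was not tested.

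The tissue-specific subunits were the least abundant members. Psma8, the alpha subunit that takes the place of Psma7 in spermatocytes, had 19 reads in the E14 teratoma and 353 in the E14-Sox2TA/WT teratoma, a TPM of 0.396 and 7.50. This was 18.9-fold higher (11.9 to 31.8), and it exceeded the log2 ratio of all 34 genes measured within 5 Mb, whose median was 0.14. Psma8 lay below the TPM minimum of 10 and so outside the rule for differential expression. None of its 50-nt stretches occurs in another gene, Psma7 included. Relative to Psma7, it stood at 0.0928% in the E14 teratoma and 1.77% in the E14-Sox2TA/WT teratoma.

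Germ cell markers were higher beside Psma8, in a spermatocyte list that was chosen after seeing the data. With no filter, all 12 listed genes stood higher in the E14-Sox2TA/WT teratoma, against 8819 of the 18558 genes that reached a TPM of 1. These 12 had a median log2 ratio of 2.11 (1.24 to 3.99). Their summed TPM was 10.6 in the E14 teratoma and 194 in the E14-Sox2TA/WT teratoma. A TPM of 1 was reached by 10 of them, 7 of which did so through the E14-Sox2TA/WT teratoma alone. Stra8, which is induced at the entry into meiosis, had a TPM of 2.26 and 64.4, and the germ cell RNA-binding protein gene Dazl had 3.12 and 53.6. Sycp3, of the synaptonemal complex, had 10 and 786 reads, and Hormad1, a protein of the meiotic chromosome axis, had 8 and 795 reads. Spo11, which makes the meiotic double-strand breaks, had 0 and 12 reads. The part of germ cells in the level of Psma8 was not tested.

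Psmb11, the thymic counterpart of Psmb5, had 11 reads in the E14 teratoma and 3 in the E14-Sox2TA/WT teratoma, a TPM of 0.107 and 0.0263. The ratio of 0.245 has a counting interval from 0.0438 to 0.926, and neither library reached a TPM of 1. Of 7 listed markers of cortical thymic epithelium, taken with no filter, 5 stood higher and 2 lower in the E14-Sox2TA/WT teratoma, with a summed TPM of 36.1 and 40.8. Genes that reached a TPM of 1 were higher in 8819 of 18558 cases. Foxn1, the defining transcription factor of that epithelium, had 4 and 5 reads, and Prss16, the thymus-specific protease, had 4 and 109 reads. Cd83 had a TPM of 12.5 and 16.7, Ccl25, a chemokine of that epithelium, had 12.2 and 10.3, Dll4 had 8.66 and 4.66, and Ly75 had 0.983 and 4.45.

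**Figure D4:**
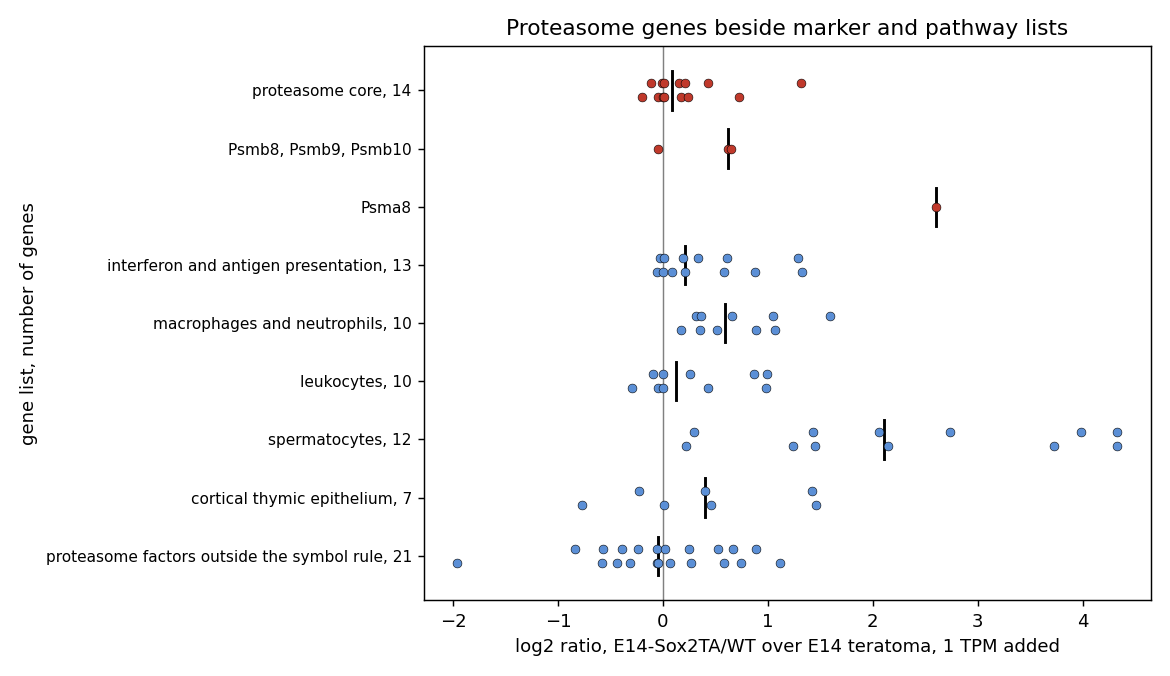
Log2 ratio, E14-Sox2TA/WT over E14 teratoma with 1 added to each TPM (horizontal axis), of the core subunits, the inducible subunits and Psma8 (red) and of genes of related lists (blue), with the number of genes in each list and no filter on level. Vertical bars mark medians, which are 0.09 for the core, 0.59 for the macrophage and neutrophil list and 2.11 for the spermatocyte list.

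In the regulatory particle, folds from 0.8 to 1.25 covered 12 of the 17 genes, and outside lay Psmd7, Psmd8 and Psmd2 on the lower side and Psmc5 and Psmc6 on the higher side. The lid subunit Sem1, outside the symbol rule at a TPM of 581 and 557, is not among these 17. The median log2 ratio of the 17 was -0.04 (-0.18 to 0.15), with 8 genes higher and 9 lower, and it turned to 0.10 with TMM scaling and 0.22 with reads scaled by library total. Higher to any degree were 8819 of the 18558 genes that reached a TPM of 1. The summed TPM of the 17 genes was 3363 and 3170, a ratio of 0.943. The 6 ATPases summed to 1270 and 1405, a ratio of 1.11, and the 11 other subunits to 2093 and 1765, a ratio of 0.844. Relative to the core, the median TPM of the regulatory particle was 0.504 in the E14 teratoma and 0.498 in the E14-Sox2TA/WT teratoma. By summed TPM the ratio was 0.758 and 0.637. The highest of the 17 genes exceeded the lowest 4.83-fold in the E14 teratoma and 3.57-fold in the E14-Sox2TA/WT teratoma.

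The ATPases form the ring that unfolds substrates and opens the gate of the core. Psmc5 had a TPM of 176 in the E14 teratoma and 277 in the E14-Sox2TA/WT teratoma and was 1.58-fold higher (1.52 to 1.63), the largest fold of the ring. Psmc6 had 163 and 208, a fold of 1.28 (1.24 to 1.32), Psmc4 had 201 and 235, and Psmc3 had 220 and 246. On the other side, Psmc1 had 312 and 264, a fold of 0.846 (0.824 to 0.869), and Psmc2 had 199 and 175. Psmc5 was below Psmc1, Psmc2, Psmc3 and Psmc4 in the E14 teratoma and was the highest ATPase in the E14-Sox2TA/WT teratoma.

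Psmd7, a lid subunit that pairs with the deubiquitinase Psmd14, lies on chromosome 8 (chr8:107580380-107588482). It had 14818 reads and a TPM of 385 in the E14 teratoma, the highest of the 17 regulatory particle genes in the set. In the E14-Sox2TA/WT teratoma it had 8020 reads and a TPM of 187. It was 2.06-fold lower (2.01 to 2.12), and 1.79-fold lower with reads scaled by library total, so that it passed a 2-fold change with TPM and with the correction for transcript length but with none of the 4 other scalings. Its partner Psmd14 had 140 and 127, and the ratio of Psmd7 to Psmd14 was 2.75 and 1.47. None of its 50-nt stretches occurs in another gene. The 148 genes measured within 5 Mb centred on a log2 ratio of -0.62 (median, -0.80 to -0.50). Psmd7 itself stood at -1.04, and 44 of these neighbours were lower.

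Psmb10, the inducible subunit described above, lies on the same chromosome (chr8:105935728-105938392), and its window of 5 Mb overlaps that of Psmd7. Its log2 ratio of -0.05 stood above the median of its 121 neighbours, -0.60 (-0.81 to -0.46), and 27 of them were higher. The chromosome as a whole had a median of -0.48 over 924 genes. The part of the chromosome in the levels of Psmd7 and Psmb10 was not tested. Over the 46 members with a TPM of at least 1 other than Psma8, the log2 ratio of a member and the median of its neighbours within 5 Mb had a Pearson r of 0.32 and a Spearman rho of 0.03, as a description across genes that share 2 libraries and in part share neighbours.

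**Figure D5:**
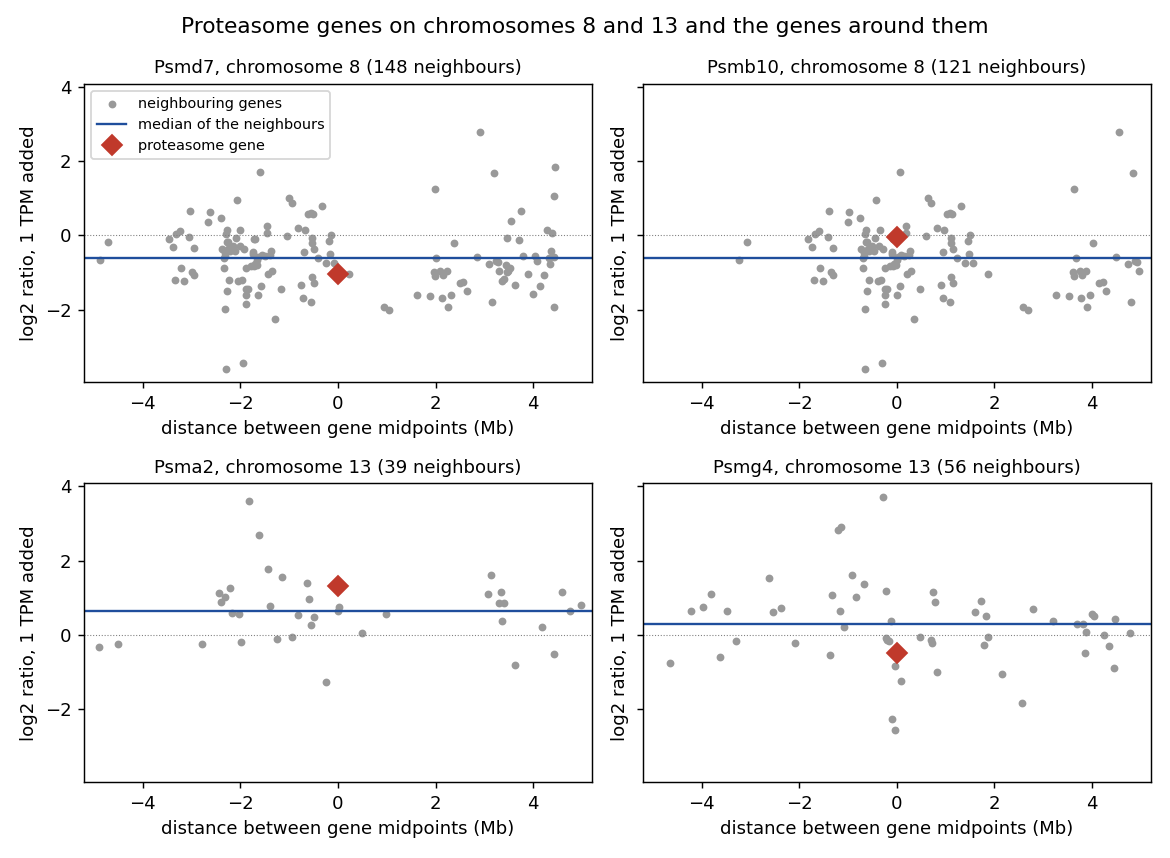
Log2 ratio with 1 added to each TPM (vertical axis) of genes within 5 Mb of Psmd7, Psmb10, Psma2 and Psmg4 against the distance in Mb between the midpoints of the gene and the proteasome gene (horizontal axis), with the proteasome gene as a red diamond and the median of its neighbours as a blue line. Psmd7 lies below and Psmb10 above a common low median on chromosome 8, and on chromosome 13 Psma2 lies above and Psmg4 below the median of their neighbours.

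Of the other lid and base subunits, Psmd8, a lid subunit, had a TPM of 289 and 209 and was 1.38-fold lower (1.34 to 1.42). Psmd2, a scaffold of the base that holds ubiquitin receptors, had 261 and 207 and was 1.26-fold lower (1.23 to 1.29). Psmd12, a lid subunit, was the highest by fold, at 139 and 155 or 1.11-fold (1.07 to 1.15). Psmd1, the other large scaffold, had 125 and 132, and the ubiquitin receptor Psmd4 had 214 and 221. The remaining subunits, Psmd3, Psmd6, Psmd11 and Psmd13, had TPM ratios from 0.952 to 1.02.

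The activators, which open the core without ubiquitin, did not differ together. Psme1 and Psme2 form a joint ring that interferon gamma induces, and they lie close together on chromosome 14. Psme1 had 4121 reads and a TPM of 175 in the E14 teratoma and 3216 reads and a TPM of 123 in the E14-Sox2TA/WT teratoma, 0.699-fold (0.667 to 0.732). Psme2 had 3314 and 3729 reads and a TPM of 154 and 155. The ratio of Psme1 to Psme2 was 1.14 in the E14 teratoma and 0.790 in the E14-Sox2TA/WT teratoma, a change of 0.695-fold (0.651 to 0.742). The near copy Psme2b, which holds 54.9% of the 50-nt stretches of Psme2, had 17 reads in each library, and the way reads were split between them is not given in the sources used here. Psme3, the nuclear activator, had a TPM of 77.9 and 83.0. Psme4, a large single-chain activator that acts in chromatin and in male germ cells, had 36.9 and 56.3 and was 1.53-fold higher (1.48 to 1.58), and 2.31-fold after the correction for transcript length.

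Psmf1, which inhibits the core in the test tube, had 3147 reads and a TPM of 37.9 in the E14 teratoma and 2062 reads and a TPM of 21.6 in the E14-Sox2TA/WT teratoma. It was 1.75-fold lower (1.66 to 1.85), and from 1.43-fold to 1.62-fold lower under the alternatives. After Psmd7 this was the lowest fold among members with a TPM of at least 10.

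The assembly chaperones, which leave or are degraded once a particle is complete, had folds on both sides. Psmg1 and Psmg2 act as a dimer in building the alpha ring. Psmg1 had 1094 reads and a TPM of 43.5 in the E14 teratoma and 2292 reads and a TPM of 81.7 in the E14-Sox2TA/WT teratoma, 1.88-fold higher (1.74 to 2.02), and 2.16-fold with reads scaled by library total. Psmg2 had 74.1 and 85.8, a fold of 1.16 (1.09 to 1.23), so the ratio of Psmg1 to Psmg2 was 0.588 and 0.951. Psmg3 and Psmg4 form a further dimer. Psmg3 had 56.8 and 55.5, and Psmg4 had 74.3 and 52.4, which was 1.42-fold lower (1.29 to 1.56). Psmg4 lies on chromosome 13 like Psma2, among 56 neighbours with a median log2 ratio of 0.29. The ratio of Psmg3 to Psmg4 was 0.764 in the E14 teratoma and 1.06 in the E14-Sox2TA/WT teratoma.

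The chaperones of the ATPase ring differed less. Psmd5 had a TPM of 79.5 and 82.7, Psmd9 had 33.1 and 28.4, and Psmd10, also known as gankyrin, had 39.6 and 36.8. These 3 were less abundant than any ATPase of the ring they help to build. Pomp, which matures the beta ring and whose symbol falls outside the rule, had 327 and 394 and was 1.20-fold higher (1.16 to 1.25).

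Other genes of the proteasome system were taken from a list of 21 measured genes, of which 10 were higher and 11 lower in the E14-Sox2TA/WT teratoma, with a median log2 ratio of -0.05 (-0.39 to 0.53). For all genes that reached a TPM of 1, 8819 of 18558 were higher. Nfe2l1 encodes the transcription factor that restores proteasome genes when proteasome activity is short, and it had a TPM of 88.0 and 67.1, 1.31-fold lower (1.27 to 1.35). Ddi2, the protease that cleaves this factor into its active form, had 10.8 and 24.6, a fold of 2.27. Nfe2l2, the antioxidant response factor, had 37.0 and 59.5, a fold of 1.61 (1.52 to 1.69). The lid subunit Sem1 was the most abundant in both libraries, at 581 and 557. Vcp, the unfoldase that delivers ubiquitinated proteins, had 406 and 326, next in the E14 teratoma but below Pomp in the E14-Sox2TA/WT teratoma. Ubqln2, a shuttle for ubiquitinated proteins on chromosome X, had 168 and 42.5 and was 3.95-fold lower (3.81 to 4.10), whereas its relative Ubqln1 had 78.2 and 75.0. The proteasome-bound deubiquitinases Uchl5 and Usp14 had 31.1 and 58.2, and 35.0 and 59.2.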

How the data were processed

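RNA of 1 E14 and 1 E14-Sox2TA/WT teratoma sample was sequenced on an Illumina instrument. The submitters' processing notes name bcl2fastq 2.20.0, Trimmomatic, HISAT2 2.1.0 and StringTie 2.1.3b, and the builds hg19 and mm10. The authors deposited raw counts of reads by gene, FPKM, in which reads are divided by length and sequencing depth, and TPM, which the authors brought to a fixed sum. Positions came from RefSeq genes of GRCm38.p6, matched for all 48 members.

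Folds were ratios of TPM. A list was described by its median log2 ratio, after adding 1 to every TPM, across genes that reached a TPM of 1 in either library, or, for related lists, chosen after seeing the data, across all listed genes, with order-statistic intervals. The counting intervals for ratios of 2 genes within a library were taken from the log odds of the reads. Length correction subtracted the median of genes in 20 bins of transcript length. Stretches of 50 nt were compared between GENCODE transcripts. Members and lists were chosen with earlier results of these data known. Named were all catalytic, inducible, tissue-specific, activator, inhibitor and chaperone members, and of the other classes the 3 highest and 3 lowest by ratio and the 2 most abundant. From related lists, the 3 most abundant and the 2 with the largest difference were named, besides Nfe2l1, Nfe2l2, Pomp, Tap1 and Irf1, and further genes were picked after their values were seen. Some genes are not reported here, and they were left out of the lists. The intervals and the length correction were tested on simulated counts. Tools were R 4.3.3 with edgeR 4.0.16, for TMM factors only, and Python 3.11.15 with scipy 1.17.1, pandas 2.3.3, numpy 2.4.6 and matplotlib 3.10.9.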

Additional observations from a re-analysis of the deposited data

How the results depend on the processing

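No paired analysis was possible because each group has a single library, and no replicate could be left out. Of 125 values of medians, counts, sums and ratios under alternatives, 93 stayed within the counting or order-statistic interval, or within 1.5 times a count. For the smallest lists the range of the genes stood in for the interval. The particle ratio and the summed inducible ratio were judged by a fixed margin. Some alternatives left the genes of a class unchanged, such as a TPM of at least 10 for the core, and could not move its median. The median of all members was 0.21 with FPKM, 0.22 with library totals and -0.13 with length correction. The core subunits had -0.14 with length correction. The regulatory particle had 0.16 with FPKM and 0.22 with library totals. The inducible subunits had 0.74 with FPKM, 0.76 with library totals, 0.66 with TMM, 0.67 with median-of-ratios factors and 0.68 when centred on all genes. The count of members past the fold on the higher side, 1 as reported, was 7 at 1.5-fold, 0 at 3-fold, and 2 with a TPM of at least 1, without a filter, with length correction, with FPKM and with library totals. On the lower side, also 1, it was 2 at 1.5-fold, 0 at 3-fold, 2 without a filter, and 0 with FPKM, library totals, TMM and median-of-ratios factors. The summed level of all members had a ratio of 1.19 with FPKM, 1.17 with library totals and 1.09 without mitochondrial and hemoglobin genes. Psmb10 to Psmb7 changed 0.992-fold with length correction. The ratio of regulatory to core particle, which changed 0.989-fold by medians, changed 0.841-fold by sums, 0.913-fold by median reads and 1.12-fold with length correction. The causes were not tested. For single genes, chosen as an alternative after seeing the data, 29 of 47 members kept their direction under 5 alternatives. Also added after seeing the data, leaving out the 9 members that share 20% or more of their stretches with other genes gave a median of 0.03. Differences between tumours of 1 group cannot be seen with 1 library each.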

Other observations

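Genes that supply and activate ubiquitin, the tag that the proteasome reads, differed in both directions. The polyubiquitin gene Ubb had a TPM of 1870 in the E14 teratoma and 1470 in the E14-Sox2TA/WT teratoma, 1.27-fold lower (1.26 to 1.29). Rps27a, a fusion of ubiquitin with a ribosomal protein, had 3454 and 3110, although its reads were 61231 and 63147. Uba1, the main activating enzyme, had 261 and 144 and was 1.81-fold lower (1.78 to 1.85). Uba6, which activates ubiquitin and a related modifier, had 8.66 and 11.9 and was 1.38-fold higher (1.27 to 1.49).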
